A study of Drosophila melanogaster with 2 samples.

Results

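The juvenile hormone genes of the fly were followed through the transcriptome of Drosophila melanogaster larvae. The 8 genes were taken by name to cover synthesis (jhamt), breakdown (Jhe, Jheh1, Jheh2 and Jheh3), reception (Met and gce) and response (Kr-h1). They are 8 of 14001 genes measured, with 16 listed transcripts of 29992 matched to an annotation. The samples were 2 RNA-sequencing libraries, numbered as replicates, made from whole larvae in the third instar. The larvae carried the HP1c allele f04929 on both chromosomes (HP1c f04929/HP1c f04929) and were raised at 25 °C and 70% humidity. HP1c is a chromodomain protein of the heterochromatin protein 1 family. The series compares 2 genotypes, and the second was not analysed here, so no effect of the allele was computed. The labels do not say whether the libraries came from separate cultures. In a whole larva, fewer cells of a type and less RNA per cell cannot be told apart.

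Juvenile hormone is a sesquiterpenoid released by the corpus allatum, a small gland that in the fly larva is part of the ring gland. The mevalonate pathway supplies farnesyl pyrophosphate, and the methyltransferase encoded by jhamt acts in the last steps to the hormone. Esterases and epoxide hydrolases inactivate it. In target cells the hormone binds the basic helix-loop-helix PAS proteins Met and Gce, which act with the co-activator Taiman and induce Kr-h1. In insects the hormone is best known for keeping larval character at moults, and it also acts in the adult gonad.

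Replicate 1 amounted to 39745145 and replicate 2 to 45177298 estimated reads, of which rRNA entries took 12.1% and 2.55%. HP1c itself was present at 25 and 42 reads. Markers of larval tissue were abundant. All 5 fat body, 5 salivary gland and 4 larval cuticle genes stood at 187 TPM (Lcp3 in replicate 1) or more. Of 7 adult yolk and chorion genes, none reached 1 TPM, and Cp16 and Cp19 were at 0 reads in both libraries.

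Levels are in TPM, a scale of transcript abundance that divides reads by transcript length and so allows genes to be compared. All 8 juvenile hormone genes reached the detection threshold of 1 TPM in both libraries, as did 77.9% of all genes. The hydrolase genes Jheh3 and Jheh2 were the most abundant, followed by Jheh1 and Kr-h1, then gce, Met, jhamt and Jhe. Library values overlapped for 3 neighbouring pairs in that order, namely Jheh3 with Jheh2, Jheh1 with Kr-h1, and jhamt with Jhe. The 4 other steps were larger than the spread between the libraries. The median over detected genes was 13.2 TPM in replicate 1 and 12.8 TPM in replicate 2, so Kr-h1 and the hydrolase genes lay above it and the other 4 genes below it in both.

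**Figure D1:**
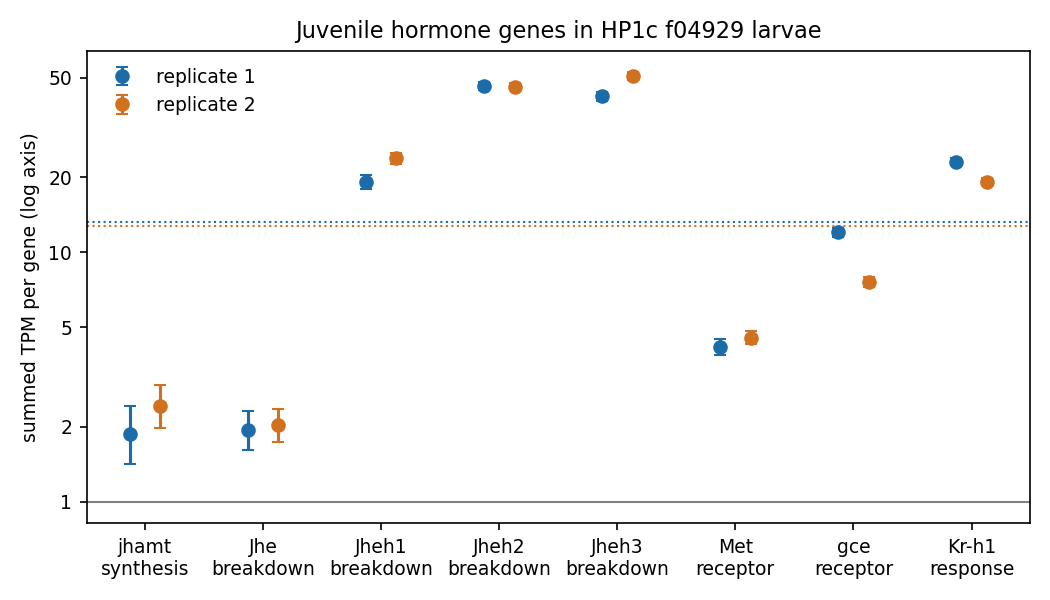
Summed TPM of each juvenile hormone gene (log axis) in replicate 1 (blue) and replicate 2 (orange). Points are library values, bars are exact Poisson 95% intervals, dotted lines are the medians of detected genes and the grey line is 1 TPM. Jheh2 and Jheh3 sit between 42.1 and 50.9 TPM, and jhamt and Jhe between 1.87 and 2.42 TPM.

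The synthesis gene jhamt (FBgn0028841; 2L, 16365903 to 16367039 on BDGP6) encodes juvenile hormone acid methyltransferase. It had 57 reads in replicate 1 and 99 in replicate 2. The reads gave 1.87 TPM (95% Poisson interval 1.41 to 2.42) and 2.42 TPM (1.97 to 2.95), a mean of 2.14 ± 0.393 TPM (SD, n = 2). Scaled by TMM, the trimmed mean of M values, which aligns the bulk of genes, the ratio of replicate 2 to replicate 1 was 1.34 with an interval of 0.959 to 1.89 that holds 1. Scaled by library size only it was 1.53, and the interval of 1.09 to 2.16 leaves out 1. The level lay at percentile 25.7 of all genes in replicate 1 and 29.1 in replicate 2. The gene has no annotated exon overlap with another gene, and its nearest coding neighbours lie 9167 and 33135 bases away.

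Both annotated jhamt transcripts encode 297 residues and differ in their 3′ end, where jhamt-RB extends 63 bases beyond jhamt-RA. All 57 reads of replicate 1 were assigned to jhamt-RA. In replicate 2, jhamt-RA held 74.2 and jhamt-RB 24.8 estimated reads. The level of jhamt-RA was therefore nearly equal, at 1.87 and 1.85 TPM, and the surplus of replicate 2 was all in jhamt-RB. Because jhamt-RA has no base of its own, this division rests on 63 bases and on the model that shared out the reads.

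Genes of other ring gland cells gave a scale for the gland in these whole-larva libraries. Akh, the marker of the corpora cardiaca, stood at 9.12 and 10.1 TPM in replicates 1 and 2. The 6 prothoracic gland genes, which act in ecdysone synthesis, spanned a wide range that holds the jhamt level. The highest, sro, stood at 38.9 and 35.2 TPM, spok at 13.7 and 13.3 TPM, phm at 13.9 and 11.9 TPM and sad at 11.3 and 9.68 TPM. The lowest were nvd at 1.70 and 1.47 TPM and dib, which did not reach 1 TPM, at 0.603 and 0.866 TPM. None of the 6 prothoracic gland genes was 2-fold apart between the libraries, where 5.42% of all genes with enough reads were. Cyp6g2, a P450 gene known from the corpus allatum, stood at 1.70 and 2.03 TPM, a level like that of jhamt.

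Jhe (FBgn0010052; 2R, 16119793 to 16122773) encodes juvenile hormone esterase, which cleaves the methyl ester of the hormone. It had 126 and 174 reads, giving 1.94 TPM (1.61 to 2.31) in replicate 1 and 2.03 TPM (1.74 to 2.35) in replicate 2. The mean was 1.98 ± 0.0619 TPM (SD, n = 2), the lowest of the 8 genes. Per length, Jhe stood at 1.04 times the jhamt level (0.754 to 1.45) in replicate 1 and 0.837 times (0.650 to 1.08) in replicate 2. Both intervals hold 1, so the esterase and the methyltransferase could not be ranked in either library.

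Jhe has 3 annotated transcripts, all encoding 579 residues. Jhe-RB and Jhe-RC start 341 bases downstream of Jhe-RA and together took 79.5% and 81.6% of the gene's TPM in replicates 1 and 2. Jhe-RA, the one Jhe transcript with bases of its own (122), stood at 0.397 and 0.374 TPM. The start further from Jhedup was thus used more in both libraries, by these estimates. Jhe-RB and Jhe-RC have no base of their own apart from each other and Jhe-RA, and their shares of 44.2% and 35.3% in replicate 1 became 54.5% and 27.1% in replicate 2.

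The gene next to Jhe behaved otherwise. Jhedup (FBgn0034076; 2R, 16117109 to 16119149), a duplicate of the esterase gene, ends 643 bases upstream of Jhe on the same strand. It had 102 reads in replicate 1 and 397 in replicate 2, at 1.79 TPM (1.46 to 2.17) and 5.28 TPM (4.77 to 5.82). Replicate 2 was 3.01-fold higher (95% Clopper-Pearson interval 2.41 to 3.78) after TMM scaling. Within replicate 1 Jhedup and Jhe were at like levels, with a ratio of 0.923 (0.704 to 1.21), whereas in replicate 2 Jhedup was 2.60 times Jhe (2.17 to 3.13). Jhedup has no annotated exon overlap with another gene.

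The juvenile hormone epoxide hydrolase genes open the epoxide ring of the hormone, and they lie in tandem on the minus strand of 2R. In the direction of transcription the order is Jheh3 (FBgn0034406; 18860375 to 18862078), Jheh2 (FBgn0034405; 18855767 to 18858245) and Jheh1 (FBgn0010053; 18853434 to 18855087). Gaps of 2129 and 679 bases separate them. They encode proteins of 468, 463 and 474 residues.

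Jheh2 had the TMM-scaled ratio nearest to 1 of the 8 genes, at 1.02 (0.963 to 1.07), though with library size only it was 1.16 (1.10 to 1.22) and Kr-h1 lay nearer to 1. Jheh2 had 2413 and 3171 reads and stood at 46.3 TPM (44.4 to 48.1) and 46.1 TPM (44.5 to 47.7), a mean of 46.2 ± 0.144 TPM (SD, n = 2). Nearly all of it was Jheh2-RA. Jheh2-RD, which reaches 305 bases further at its 5′ end, had 3.62 estimated reads in replicate 1 and 0 in replicate 2.

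Jheh3 stood at 42.1 TPM (40.4 to 44.0) in replicate 1 and 50.9 TPM (49.2 to 52.6) in replicate 2, from 2131 and 3393 reads. Jheh1 stood at 19.1 TPM (17.9 to 20.4) and 23.8 TPM (22.6 to 25.0), from 906 and 1487 reads. Both were higher in replicate 2 beyond counting error, at 1.23-fold (1.16 to 1.30) for Jheh3 and 1.27-fold (1.17 to 1.38) for Jheh1. Each has 1 transcript. Their means were 46.5 ± 6.15 and 21.5 ± 3.30 TPM (SD, n = 2).

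The balance within the cluster was compared inside each library, where depth cancels. Jheh3 exceeded Jheh1 2.20-fold (2.04 to 2.38) in replicate 1 and 2.14-fold (2.01 to 2.27) in replicate 2. These outer genes of the cluster kept a near-constant ratio. Jheh2 exceeded Jheh1 2.42-fold (2.24 to 2.61) and 1.94-fold (1.82 to 2.06). The order of Jheh3 and Jheh2 turned over, with a ratio of 0.911 (0.859 to 0.966) in replicate 1 and 1.10 (1.05 to 1.16) in replicate 2. The hydrolase genes summed to 55.5 times the Jhe level (46.5 to 66.7) in replicate 1 and 59.6 times (51.3 to 69.6) in replicate 2.

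The annotation places an antisense RNA, asRNA:CR46485 (18853372 to 18861263), on the plus strand across Jheh1 and Jheh2 and into Jheh3. Its exons overlap all 1486 exonic bases of Jheh1, 1765 of 1926 of Jheh2 and 780 of 1576 of Jheh3. It is not among the genes measured here, and the handling of strand is not stated by header or label. Reads of the hydrolase genes and of this RNA therefore cannot be told apart.

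**Figure D2:**
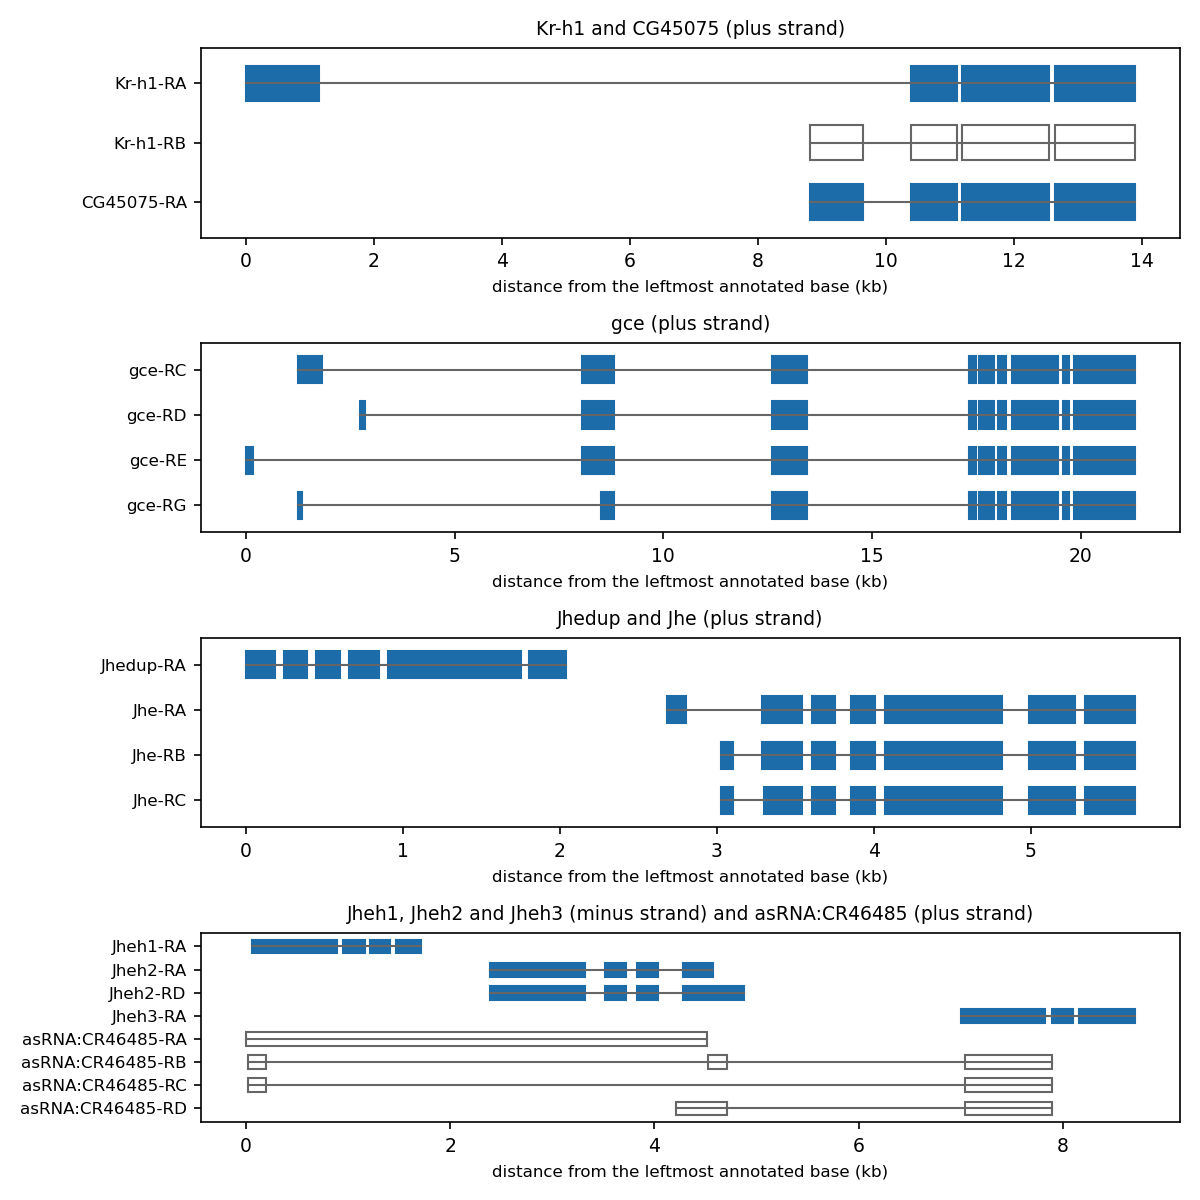
Annotated exons (boxes) and introns (lines) of Kr-h1, gce, Jhedup with Jhe, and the Jheh cluster, against distance from the leftmost base in kb. Filled transcripts have a value in the deposited tables and open ones have none. Kr-h1-RB and CG45075-RA have the same 4 exons, and asRNA:CR46485 runs across Jheh1 and Jheh2 and ends inside Jheh3.

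The receptor genes Met and gce are paralogs on the X chromosome. Met (FBgn0002723; 11616124 to 11621280) had 726 and 999 reads, at 4.16 TPM (3.86 to 4.47) in replicate 1 and 4.54 TPM (4.27 to 4.83) in replicate 2. Its mean was 4.35 ± 0.274 TPM (SD, n = 2). The libraries differed by less than counting error after TMM scaling, with a ratio of 1.06 (0.965 to 1.17). Scaled by library size only the ratio was 1.21, and the interval of 1.10 to 1.33 leaves out 1.

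The paralog gce (FBgn0261703; 15297766 to 15319074) had 2133 and 1799 reads. It stood at 12.0 TPM (11.5 to 12.5) in replicate 1 and 7.61 TPM (7.27 to 7.97) in replicate 2, a mean of 9.80 ± 3.10 TPM (SD, n = 2). The intervals do not overlap, and replicate 1 was 1.53-fold higher (1.44 to 1.64), the largest difference among the 8 genes under TMM scaling. With library size only it was 1.35-fold, and jhamt at 1.53-fold, Jheh1 at 1.44-fold and Jheh3 at 1.40-fold, all towards replicate 2, then differed more. In both libraries gce was the more abundant receptor, 2.89 times Met (2.65 to 3.14) in replicate 1 and 1.68 times (1.55 to 1.81) in replicate 2.

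All 4 gce transcripts have a coding sequence for 959 residues and end at the same base. They differ in start or in exon bases, and gce-RC and gce-RG, with 1 start, are 5524 and 4608 bases long. gce-RC and gce-RG share a start 1243 bases inside the gene and took 79.1% and 85.2% of the gene's TPM in replicates 1 and 2. gce-RE, from the outermost start, stood at 1.21 and 1.13 TPM. gce-RD, from the innermost start, had 226 reads in replicate 1 and 0 in replicate 2. gce-RC and gce-RG were also lower in replicate 2, at 6.12 and 4.22 TPM and at 3.36 and 2.27 TPM. By these estimates gce-RD accounts for only part of the difference between the libraries. gce-RD has 114 bases of its own and gce-RG none, so this division rests on the model that shared out the reads. Of the 5809 exonic bases of gce, 2197 and 167 overlap the antisense RNAs asRNA:CR44961 and asRNA:CR44429. Neither RNA is among the genes measured here. As for the hydrolase genes, reads of gce and of these RNAs cannot be told apart over those bases.

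Met has 2 annotated transcripts that each encode 716 residues, and Met-RB extends 1332 bases beyond Met-RA at the 3′ end. In replicate 1 all 726 reads were assigned to Met-RB. In replicate 2, Met-RB held 857 and Met-RA 142 reads, so that Met-RA took 18.5% of the gene's TPM there and 0% in replicate 1. All bases of Met-RA also belong to Met-RB, so its value is inferred from how reads were spread along the gene.

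**Figure D3:**
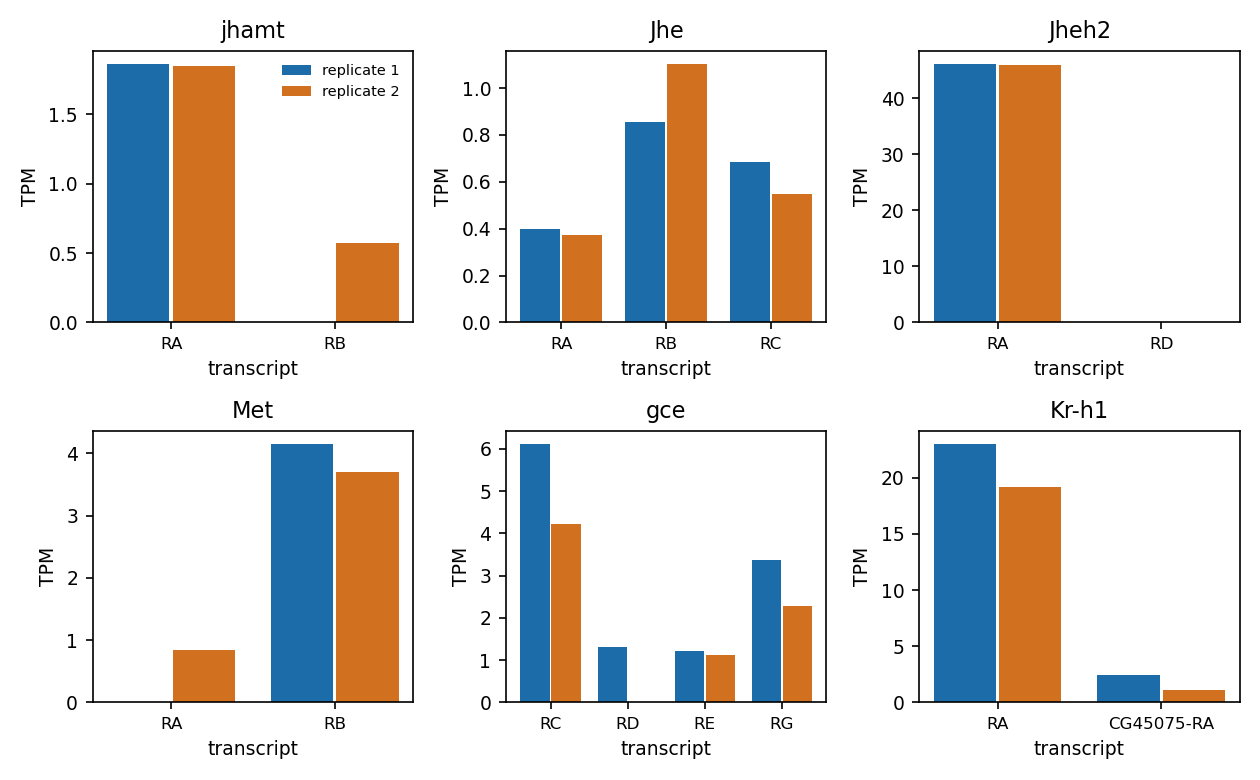
TPM of each listed transcript of the genes with several transcripts, in replicate 1 (blue) and replicate 2 (orange), with a separate linear axis for each gene. The Kr-h1 panel shows Kr-h1-RA beside CG45075-RA, which has the exons of Kr-h1-RB. Met-RA and jhamt-RB have a value in replicate 2 only, and gce-RD and Jheh2-RD (0.0575 TPM) in replicate 1 only.

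Kr-h1 (FBgn0266450; 2L, 6082603 to 6096498) encodes a zinc finger transcription factor and is the best known early target of the hormone receptors. Its listed transcript, Kr-h1-RA, had 3526 and 3887 reads. The level was 23.1 TPM (22.3 to 23.8) in replicate 1 and 19.2 TPM (18.6 to 19.8) in replicate 2, a mean of 21.1 ± 2.73 TPM (SD, n = 2). It lay at percentile 73.3 of all genes in replicate 1 and 70.5 in replicate 2. Replicate 1 was 1.17-fold higher (1.12 to 1.23), but scaled by library size only, the interval of the inverse ratio, 0.926 to 1.02, holds 1.

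The annotation gives Kr-h1 a second transcript, Kr-h1-RB, which has no value of its own in the tables analysed. It starts 8809 bases downstream, shares 3335 bases with Kr-h1-RA and encodes 845 residues where Kr-h1-RA encodes 791. Its 4 exons are those of CG45075-RA, a transcript annotated to a separate small gene, CG45075, with a coding sequence for 83 residues on the same RNA. Among annotated transcripts of protein-coding genes and pseudogenes there are 675 sets with equal exons. The tables list exactly 1 transcript of 666 of these sets, 0 of the other 9, and never more than 1. The CG45075-RA value therefore stands for an RNA that also codes for Kr-h1.

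CG45075-RA had 346 reads in replicate 1 and 211 in replicate 2, at 2.43 and 1.12 TPM. It was 2.12-fold higher in replicate 1 (1.78 to 2.53), or 1.86-fold with library size alone. Of the TPM summed over both RNAs, CG45075-RA took 9.54% in replicate 1 and 5.51% in replicate 2, and Kr-h1-RA the rest. By these estimates the upstream start accounted for most Kr-h1 RNA in both libraries. Because both RNAs share 3335 bases, the division rests in part on the model that shared out the reads. With CG45075-RA counted in, Kr-h1 came to 25.5 and 20.3 TPM, and the ratio of replicate 1 to replicate 2 to 1.22 (1.17 to 1.28).

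Between the libraries, none of the 8 genes passed the call for a difference. A call needed 10 or more reads on average, a 2-fold or larger ratio and an interval that left out 1. Of the 12206 genes with enough reads 5.42% passed it, 4.10% in favour of replicate 1 and 1.32% in favour of replicate 2. At a 1.5-fold threshold gce alone of the 8 passed, beside 12.2% of all genes. The intervals of 4 of the 8 genes excluded 1, Kr-h1 and gce being higher in replicate 1 and Jheh1 and Jheh3 in replicate 2. Among all genes the share was 53.6%, which is near the 4 of 8 seen here. The median log2 ratio, replicate 2 over replicate 1, was 0.09 for the 8 genes and 0.02 for all genes. The middle 50% of all genes lay between -0.19 and 0.19, and 5 of the 8 genes lay outside that range.

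**Figure D4:**
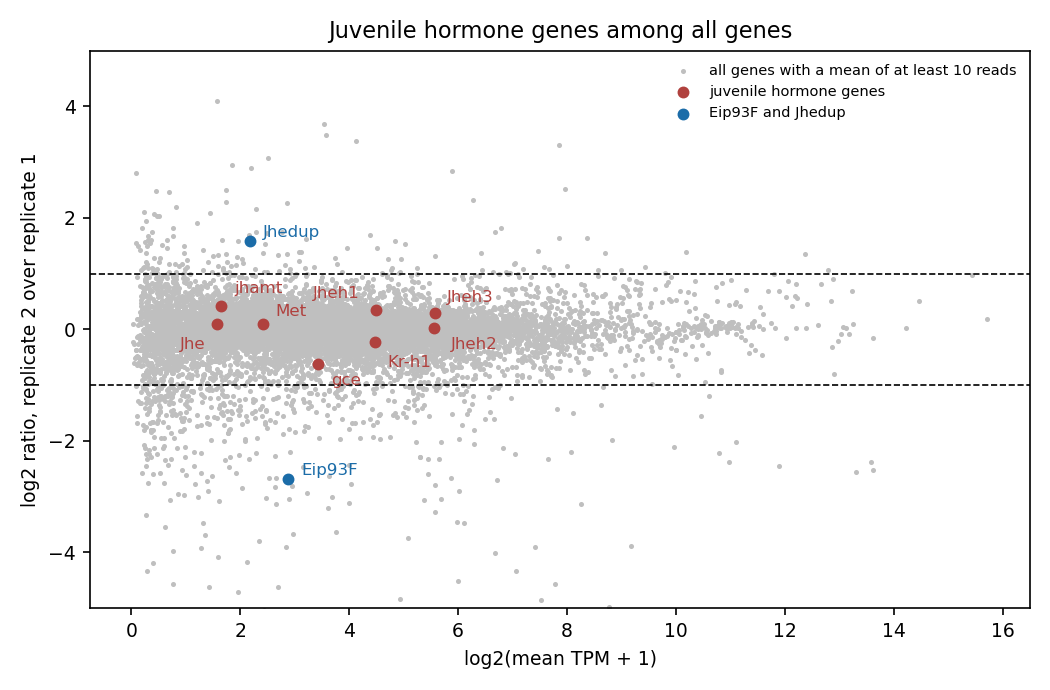
Log2 ratio of TMM-scaled reads, replicate 2 over replicate 1, against log2(mean TPM + 1) for all genes averaging 10 reads or more (grey), the 8 juvenile hormone genes (red) and Eip93F and Jhedup (blue). Dashed lines mark a 2-fold difference, and 51 genes lie beyond the plotted range. All red points lie between the dashed lines.

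Single transcripts were called at about the share seen over the whole table. Of the 15 transcripts with enough reads, 3 passed the same call, gce-RD in replicate 1 and Met-RA and jhamt-RB in replicate 2. Over all transcripts the share was 19.5%, split into 10.8% towards replicate 1 and 8.72% towards replicate 2. Each of the 3 had 0 reads in one library, and the proteins encoded by gce, Met and jhamt are of one length whichever transcript is used. The transcript shares are estimates, and their error was not given with the files.

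With values over only 2 libraries, likeness between genes means a like level and ratio. On log2(TPM + 1), the nearest gene to Kr-h1 was CG1265, at 23.2 and 19.2 TPM in replicates 1 and 2, and the nearest to gce was CG6012, at 11.8 and 7.47 TPM. For Met it was Syt7, for jhamt Ktch, for Jhe sff, for Jheh1 Zif, for Jheh2 AMPKalpha and for Jheh3 E2f1. All these distances were at most 0.0291.

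Around the 8 genes, 28 further genes of the pathway were described in 5 lists, and 26 of them were detected, beside 77.9% of all genes. The call for a difference was passed by 3 of the 28, beside 5.42% of all genes with enough reads. The counts by list that follow are of few genes and are to be read against these shares. The 7 genes listed for the mevalonate and farnesyl steps were all detected, and 0 of the 7 were 2-fold apart, with a median log2 ratio of 0.02. Fpps, which makes farnesyl pyrophosphate, stood at 44.1 and 50.9 TPM and the mevalonate kinase gene Mvk at 40.9 and 39.2 TPM. Hmgs, a synthase of the pathway, stood at 27.5 and 18.5 TPM, and Idi, the isomerase, at 20.2 and 19.2 TPM. The other listed genes were lower, with Acat2 at 11.6 and 11.5 TPM, Pmvk at 7.59 and 7.0 TPM and Mvd at 3.46 and 3.95 TPM. These genes also serve other isoprenoid products, so their levels are not specific to the gland.

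All 6 receptor partners and co-regulators were detected and 0 were 2-fold apart. The chaperone gene Hsp83, whose product escorts Met into the nucleus, stood at 225 and 386 TPM, 1.75-fold higher in replicate 2 (1.72 to 1.78). Chd64 and Fkbp39, whose proteins bind hormone response elements, stood at 467 and 420 TPM and at 74.1 and 88.8 TPM. Fs(2)Ket, which encodes the nuclear import receptor importin beta, stood at 26.1 and 25.2 TPM. The co-activator gene tai, at 25.7 and 16.5 TPM, was 1.51-fold higher in replicate 1 (1.46 to 1.57). Nup358, which encodes a nuclear pore protein, stood at 26.7 and 23.7 TPM.

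Of 6 genes listed as hormone responsive, 1 was 2-fold apart, beside 5.42% of all genes with enough reads. Eip93F encodes E93, a factor of the switch to adult development whose gene Kr-h1 represses in several insects. It had 4587 reads in replicate 1 and 919 in replicate 2, at 11.0 TPM (10.7 to 11.4) and 1.74 TPM (1.63 to 1.86), 6.46-fold higher in replicate 1 (6.02 to 6.94). Its annotated exons overlap those of no other gene. The broad gene br, which both hormones regulate, stood at 233 and 148 TPM, Eip75B at 65.7 and 49.1 TPM, JhI-26 at 19.5 and 18.9 TPM and mnd at 18.5 and 13.6 TPM. JhI-1 (RNaseZ in the annotation) went the other way, at 5.86 and 6.90 TPM, 1.20-fold higher in replicate 2 (1.08 to 1.34), and was the 1 gene of the list with a log2 ratio above 0 under TMM scaling. The list had a median log2 ratio of -0.41, against 0.02 for all genes, but its genes did not share 1 shift. The log2 ratios were -2.69 for Eip93F, -0.57 for br, -0.47 for Eip75B and -0.34 for mnd. JhI-26 was at -0.02 and JhI-1 at 0.26.

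The libraries also differed in tissue markers. All 5 glue genes of the salivary gland were higher in replicate 2, with a median log2 ratio of 0.97 and a summed level of 46128 and 92201 TPM. The 5 fat body genes summed to 27008 and 20218 TPM, but not all were lower in replicate 2. Their TMM-scaled ratios, replicate 2 over replicate 1, were 0.518 for Lsp1alpha, 0.587 for Lsp1gamma, 0.573 for Fbp1 and 0.894 for Lsp1beta. Lsp2 went the other way, at 1.02. The 4 larval cuticle genes summed to 14859 and 23795 TPM, and all 4 were higher in replicate 2. Of the glue genes, Sgs3 at 2.10-fold and Sgs4 at 2.55-fold passed the call for a difference, and Sgs5, Sgs7 and Sgs8 did not. None of the fat body and cuticle genes was 2-fold apart, where 5.42% of all genes with enough reads were. The part of these shifts in the values of gce, tai, Eip93F and Jhedup was not tested.

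The remaining lists held genes near the hormone. takeout (to), of a family related to hormone-binding proteins, had 25 reads in replicate 1 and 0 in replicate 2. Of 7 regulators of the corpus allatum and its late enzyme, 6 were detected and 0 were 2-fold apart. The pathway of the growth factor Dpp, which promotes jhamt expression in the fly, was represented by its receptor gene tkv at 55.4 and 45.2 TPM, Mad at 28.1 and 27.1 TPM and dpp at 6.87 and 5.59 TPM. AstC, whose neuropeptide acts on the gland in insects, stood at 7.03 and 9.30 TPM. These are levels over whole larvae, so they cannot be assigned to the gland.

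**Figure D5:**
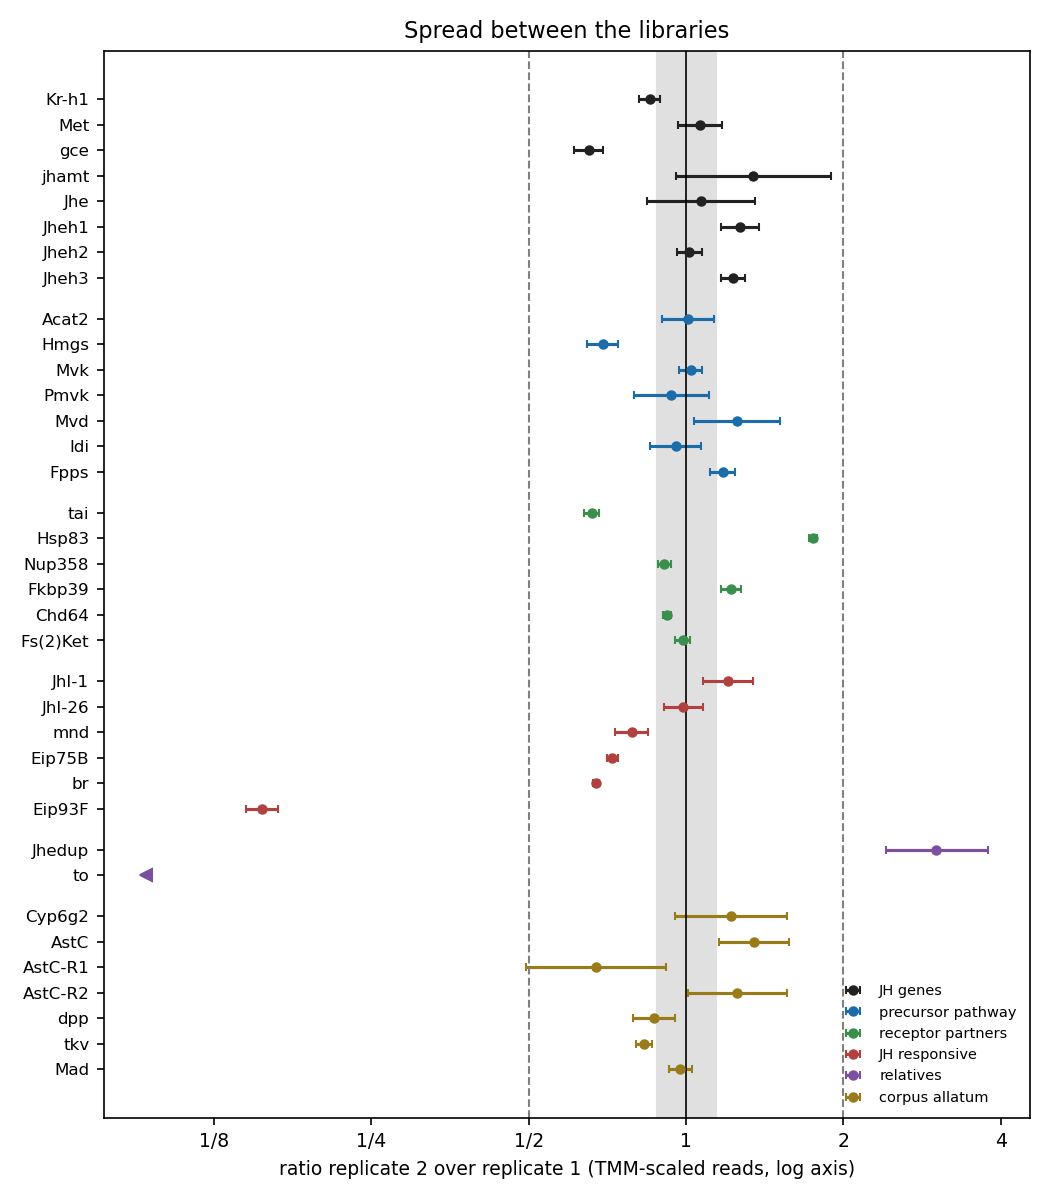
Ratio of TMM-scaled reads, replicate 2 over replicate 1 (log axis), for the 8 juvenile hormone genes and 28 pathway genes, with exact 95% intervals. The grey band holds the middle 50% of all genes, dashed lines mark 2-fold, and the triangle marks to, with 0 reads in replicate 2 set to a floor of 3. Only Eip93F, Jhedup and to pass 2-fold, beside 5.42% of all genes with enough reads.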

How the data were processed

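For each library the authors deposited a table of FlyBase transcripts with length, effective length, TPM and estimated counts, per the file headers. The column names match salmon output, and the quantifier is not named anywhere. STAR 2.5.2, HTSeq 0.6.1, bcl2fastq 2.18.0.12, Picard and FastQC appear, with no role, in the submitters' processing notes. Build, annotation and strandedness were not given in the sources. Of 30119 entries, 29992 matched the Ensembl release 115 annotation of BDGP6 by identifier, and 127 (0.0981% and 0.110% of reads) were set aside.

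Gene values are sums over transcripts, and summed counts were then rounded to whole reads. Ratios used TMM factors from all 14001 genes (edgeR 4.0.16, R 4.3.3); log2 ratios had 0.5 reads added. Intervals at the 95% level cover counting error only, and reads are not independent molecules. At this depth 3 reads on an effective length of 1000 bases correspond to 0.0849 and 0.0640 TPM. No test and no p-value can be had from 1 group of 2 libraries. Levels are means ± SD of the libraries, whose spread may be technical. The chi-square statistic of the reads was 382 times its degrees of freedom, so they are not copies of one library. Genes were matched by symbol, with RNaseZ for JhI-1 and phtm for phm.

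The 8 genes and the lists were chosen with earlier results of these data known. Genes named outside the 8 were those of the lists that were 2-fold apart or among the 4 most abundant of their list, those overlapping or next to a member, and the nearest in level. Markers, Cyp6g2 and the less abundant genes of the lists (tai, Nup358, JhI-1, Acat2, Pmvk and Mvd among them) were named outside that rule, after their values were seen. 1 further gene is not reported here. Protein and promoter sequences were not used here.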

Additional observations from a re-analysis of the deposited data

How the results depend on the processing

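No paired analysis was possible because all samples belong to 1 group. In CPM, which does not divide by length, mean levels were 87.4 for Kr-h1, 20.2 for Met, 46.7 for gce, 3.51 for Jhe, 27.9 for Jheh1, 65.5 for Jheh2 and 64.4 for Jheh3, so Kr-h1 then ranks above the Jheh genes. With rRNA entries left out and TPM rescaled, Jhe stood at 2.08 and Jheh2 at 48.5 TPM, and the other 6 levels moved by less than 1 SD. A threshold of 5 TPM left 5 of the 8 genes detected, with Met, jhamt and Jhe below it. The share of all genes at 5 TPM was not computed, so this count has no background to be read against. Library size alone raised every log2 ratio by 0.19. The ratios, replicate 2 over replicate 1, were then 0.970 for Kr-h1, 1.21 for Met, 0.742 for gce and 1.53 for jhamt. They were 1.44 for Jheh1, 1.16 for Jheh2 and 1.40 for Jheh3. The intervals of 6 of the 8 genes then excluded 1, beside 68.0% of all genes with enough reads. Library size alone split all 2-fold calls into 394 higher in replicate 1 and 276 in replicate 2, against 501 and 161 with TMM. At 1.5-fold, 1 of the 8 genes (gce) was called, beside 12.2% of all genes, and with single transcripts 3 of 15 were. By reads, gce-RC took 56.8% of its gene against 53.2% by TPM. Low depth limits jhamt (57 and 99 reads) and Jhe (126 and 174 reads).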
